A study of Oryza sativa Japonica Group with 12 samples.

Results

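Intermediate crown root (CR) primordia of rice were set against stem cortex, gene by gene, to see which transcripts differed at this stage and which of those differences held against every cortex array. The comparison takes 6 of the 12 arrays of the series, namely the 3 hybridized with intermediate primordia and the 3 hybridized with cortex, chosen by the tissue and repetition given in their titles. All plants were *Oryza sativa* ssp. *japonica* cv. Taichung 65, with no treatment named, grown in half-strength MS medium (a plant nutrient medium) and sampled 8 days after sowing. At that age the stem base carries stacked rings of primordia, which were called early, intermediate and late, and the intermediate ones are those of the middle ring. Primordia were cut out of fixed sections by laser microdissection, and cortex, the ground tissue around them, was cut from the same sections. Each replicate is RNA pooled from 2 stem bases, so n = 3 pools for each tissue. The p-values and standard errors rest on a spread between pools that was taken over all 12 arrays, early and late primordia included. They do not measure the spread of the 6 arrays compared alone, and can understate it where cortex arrays varied more than primordia. With only those 6 arrays fitted, 1 gene was called higher and 1 lower. The number of arrays limits the precision.

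CRs are the shoot-borne roots that make up most of the root system of cereals. A primordium is founded by cells inside the stem base that divide again, form a root meristem with its cap and epidermis, and grow out through the cortex. In plant meristems, AP2-type factors of the PLETHORA family keep cells dividing, GRAS factors such as SHORT-ROOT and SCARECROW set the ground tissue apart, and auxin and cytokinin act against each other in placing the meristem. Dividing cells need new histones, replication proteins and ribosomes, whereas mature cortex cells are large, vacuolated and, in a stem base exposed to light, partly green. In dissected tissue, fewer cells of a type and less RNA per cell cannot be told apart.

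The values are log2 signals, deposited already normalized over all arrays. The cortex arrays were not alike at the bright end. The signal that 98% of genes do not exceed was 7.22, 7.16 and 7.01 on the intermediate arrays, against 6.80 on the array of cortex replicate 1 and 6.25 and 6.29 on those of replicates 2 and 3. Array medians were close together, at 2.86 to 2.90 in intermediate primordia and 2.90 to 3.00 in cortex. Across genes, which are not independent replicates, intermediate arrays correlated with each other at 0.96 to 0.967, with cortex replicate 1 at 0.92 to 0.944, and with cortex replicates 2 and 3 at 0.777 to 0.888. Cortex replicate 1 correlated with the other cortex arrays at 0.875 to 0.9, so it lay nearer to the intermediate arrays than to its own group. Results are therefore given with and without it. The tissue labels were checked on marker genes, not all of which set the tissues apart. Transcripts of photosynthesis, summed over 18 genes on the linear scale, came to 146 to 159 on the intermediate arrays and 356 to 802 on the cortex arrays. Mitotic genes, summed over 26, came to 552 to 818 in intermediate primordia and 326 to 410 in cortex. Sums of 9 histone H2B genes overlapped, at 2995 to 3579 in intermediate primordia and 1618 to 3198 in cortex. Of other primordium markers, the PLETHORA genes described below rose, whereas *OsSHR1*, *OsSCR1* and *QHB* were not called. Factors of the epidermis (HD-Zip IV, 9 genes) summed to 64.2 to 70.9 in intermediate primordia and 65.4 to 69.7 in cortex, and secondary wall cellulose synthases, which mark xylem and fibres (3 genes), to 18.3 to 19.5 in intermediate primordia and 20.2 to 31.5 in cortex.

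More genes rose than fell as deposited, and the risers were brighter. The balance turned with the processing, to 293 rises and 492 falls after another quantile normalization and 417 and 536 with an intensity trend in the fit. Fits against cortex replicate 1 alone, given below, hold 1 cortex array and no cortex spread. Fewer calls there can come from lost precision as well as from a smaller change. Of 24160 genes tested, 1382 (5.72%) were called, 776 (3.21%) that rose and 606 (2.51%) that fell. Such genes passed a Benjamini-Hochberg adjusted p under 0.05 in limma with a fold change of at least 1.5. The median log2 change of all genes was -0.03, that of the risers 1.17 and that of the fallers -0.95, and 103 genes rose and 34 fell by more than 4-fold. The median level over the 12 arrays was 5.39 for the risers, 3.14 for the fallers and 2.91 for all genes. Among the 931 genes with a mean level of 6 or more, 276 (29.6%) rose and 11 (1.18%) fell, whereas among the 13180 genes below 3 only 26 rose and 250 fell. The median change of these 13180 dim genes was -0.11. The median change of those 931 bright genes was 0.88 against the cortex mean, 0.36 against cortex replicate 1 alone, and 0.09 after the arrays were quantile normalized once more. The same genes were lower by a median of 0.68 on the log2 scale in cortex replicates 2 and 3 than in cortex replicate 1, and the part of that in the counts was not tested. At the study's thresholds, an unadjusted p under 0.01 with the same fold, 1372 genes (5.68%) were higher and 994 (4.11%) lower.

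**Figure D1:**
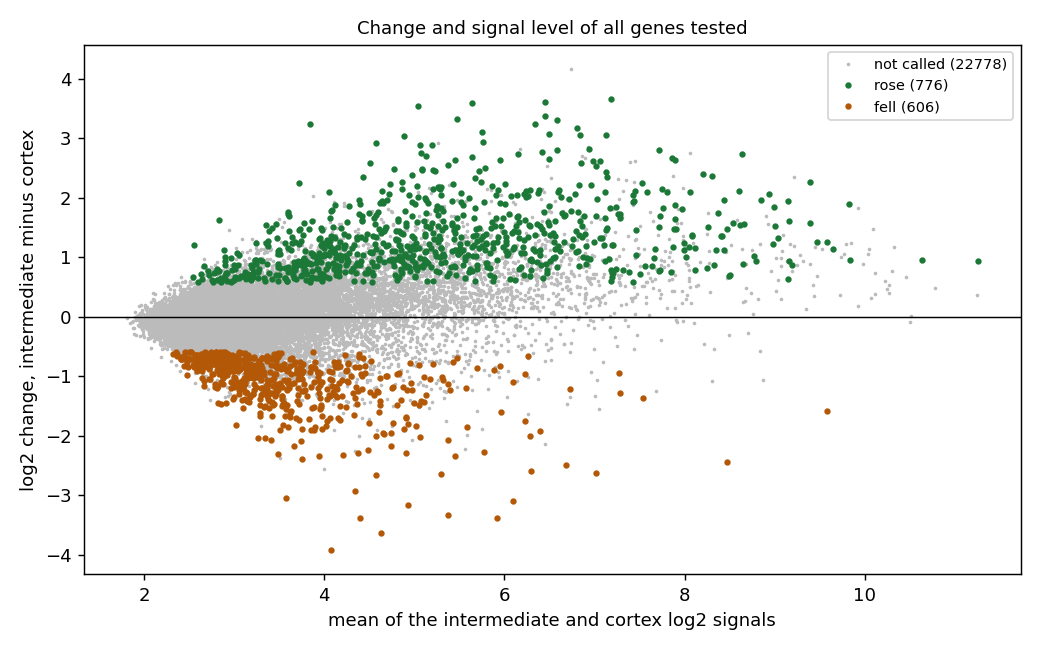
Log2 change, intermediate minus cortex (vertical axis), against the mean log2 signal of the 6 arrays (horizontal axis) for the 24160 genes tested, each point 1 gene. The 776 genes that rose lie towards high signals and the 606 that fell towards low ones.

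The calls held unequally against single cortex arrays. In 771 of the 776 risers the lowest intermediate array lay above the highest cortex array, and in 605 of the 606 fallers the highest intermediate array lay below the lowest cortex array, an absence of overlap also seen in 16.1% and 15.4% of all genes tested. A gap of at least 1.5-fold between the nearest arrays of the groups was a stricter condition, met upwards by 297 genes (1.23%) and downwards by 193 (0.799%), of which 255 had risen and 181 had fallen. Against cortex replicate 1, 547 of the risers (70.5%) were at least 1.5-fold higher, compared with 767 (98.8%) against cortex replicate 2 and 738 (95.1%) against cortex replicate 3. The median log2 change of the risers was 0.76, 1.43 and 1.24 against cortex replicates 1, 2 and 3, and cortex replicate 1 was the highest of the cortex arrays in 618 of them (79.6%, against 30.7% of all genes). For the fallers the medians were -0.74, -1.16 and -0.99. Of the fallers, 408 (67.3%), 564 (93.1%) and 545 (89.9%) were at least 1.5-fold lower than cortex replicates 1, 2 and 3.

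**Figure D2:**
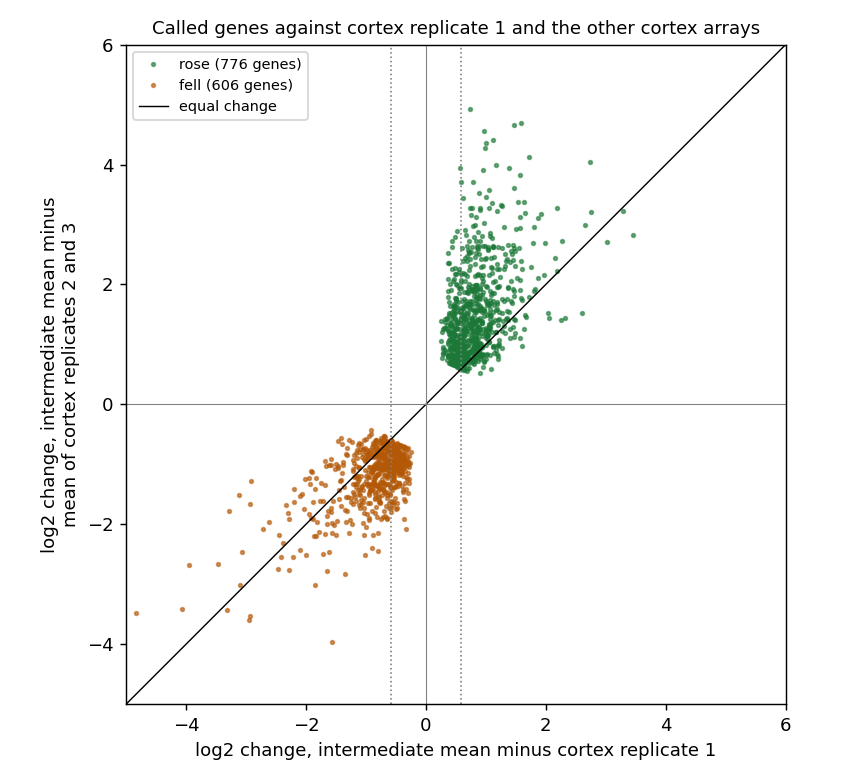
Log2 change of the mean of the intermediate arrays against cortex replicate 1 (horizontal axis) and against the mean of cortex replicates 2 and 3 (vertical axis), each point 1 of the 776 genes that rose or the 606 that fell. The diagonal marks equal change and the dotted lines a 1.5-fold change against cortex replicate 1, which 547 risers and 408 fallers reached. Most risers lie above the diagonal, with a smaller change against replicate 1.

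The counts leaned on single arrays. Without cortex replicate 1, 1902 genes rose and 1731 fell, without cortex replicate 2 it was 91 and 170, and without cortex replicate 3 it was 179 and 271. Without intermediate replicate 1, 2 or 3, 10, 69 and 427 genes rose and 34, 100 and 338 fell. Of the genes described below, 93 are calls. Of these, 90 remained without cortex replicate 1, 24 without cortex replicate 2, 34 without cortex replicate 3, and 9, 21 and 44 without intermediate replicate 1, 2 and 3. With a filter on dim probe sets at the median, 79 remained. After another quantile normalization 48 remained, against cortex replicate 1 alone 16, and in a fit of only the 6 arrays compared 2, *LOC9272152* and *LOC9272028*.

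The widest rises, those with the largest gap between the nearest arrays, were led by *LOC9272152*, a gene without a name. Signals are given in the order of replicates 1, 2 and 3. A change is the log2 difference, intermediate minus cortex, with its standard error (SE) from the fit over all 12 arrays. The log2 signals of *LOC9272152* were 5.37, 5.67 and 5.37 in intermediate primordia, against 2.19, 2.21 and 2.27 in cortex, a change of 3.25 ± 0.34 (adjusted p = 0.00334). The cortex arrays, replicate 1 included, all lay below their array medians, and every intermediate array lay far above them. Detection above background was not analysed here, so a change against signals below the array median may be no more than a lower bound, for this gene as for others below. Next came *LOC4352303*, which encodes a protein with a SWIB domain, a fold found in chromatin remodelling complexes, with 8.59, 8.10 and 8.07 in intermediate primordia and 5.51, 4.57 and 3.85 in cortex (change 3.61 ± 0.47, adjusted p = 0.00863). Here cortex replicate 1 was the highest cortex array, yet the nearest intermediate array was still far above it. *OsPSK1* (*LOC4341588*), a precursor of phytosulfokine, a small sulfated peptide that promotes cell growth and division, had signals of 6.53, 6.00 and 7.39 in intermediate primordia and 3.98, 3.97 and 3.31 in cortex (2.89 ± 0.48, adjusted p = 0.0175). The 3 cortex arrays lay close together and the groups were well apart. It was the single member of the 4 phytosulfokine precursors listed by symbol to rise (25%, against 3.21% of all genes). The other members were higher by less and did not pass.

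The other genes of this kind, chosen by that gap, were by that choice also clear of cortex replicate 1. *LOC4351209*, without a name, had 6.88, 6.00 and 6.34 in intermediate primordia and 2.95, 2.85 and 4.32 in cortex (3.03 ± 0.58, adjusted p = 0.0222), with cortex replicate 3 the highest of the cortex arrays. *LOC4326711*, annotated as a receptor-like kinase of the S-locus type, had 6.53, 5.95 and 6.46 in intermediate primordia and 4.33, 2.90 and 4.34 in cortex (2.46 ± 0.33, adjusted p = 0.00868). *LOC4331427*, a gene of histone H4, had 9.58, 7.93 and 8.45 in intermediate primordia, against 5.90, 4.40 and 6.49 in cortex (3.05 ± 0.63, adjusted p = 0.0262). H4 genes are near-identical copies, and the signals of such copies cannot be separated here. *LOC4334190*, another SWIB gene, rose by 2.58 ± 0.51 (adjusted p = 0.0241) and the unnamed *LOC4337028* by 1.86 ± 0.27 (adjusted p = 0.0108). Of these 8 calls, 8 remained without cortex replicate 1, 6 without replicate 2, 8 without replicate 3 and 1, 5 and 6 without intermediate replicate 1, 2 and 3 (highest adjusted p = 0.111). After another quantile normalization 6 remained, and against cortex replicate 1 alone their changes were 1.80 to 3.45 and 2 passed.

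**Figure D3:**
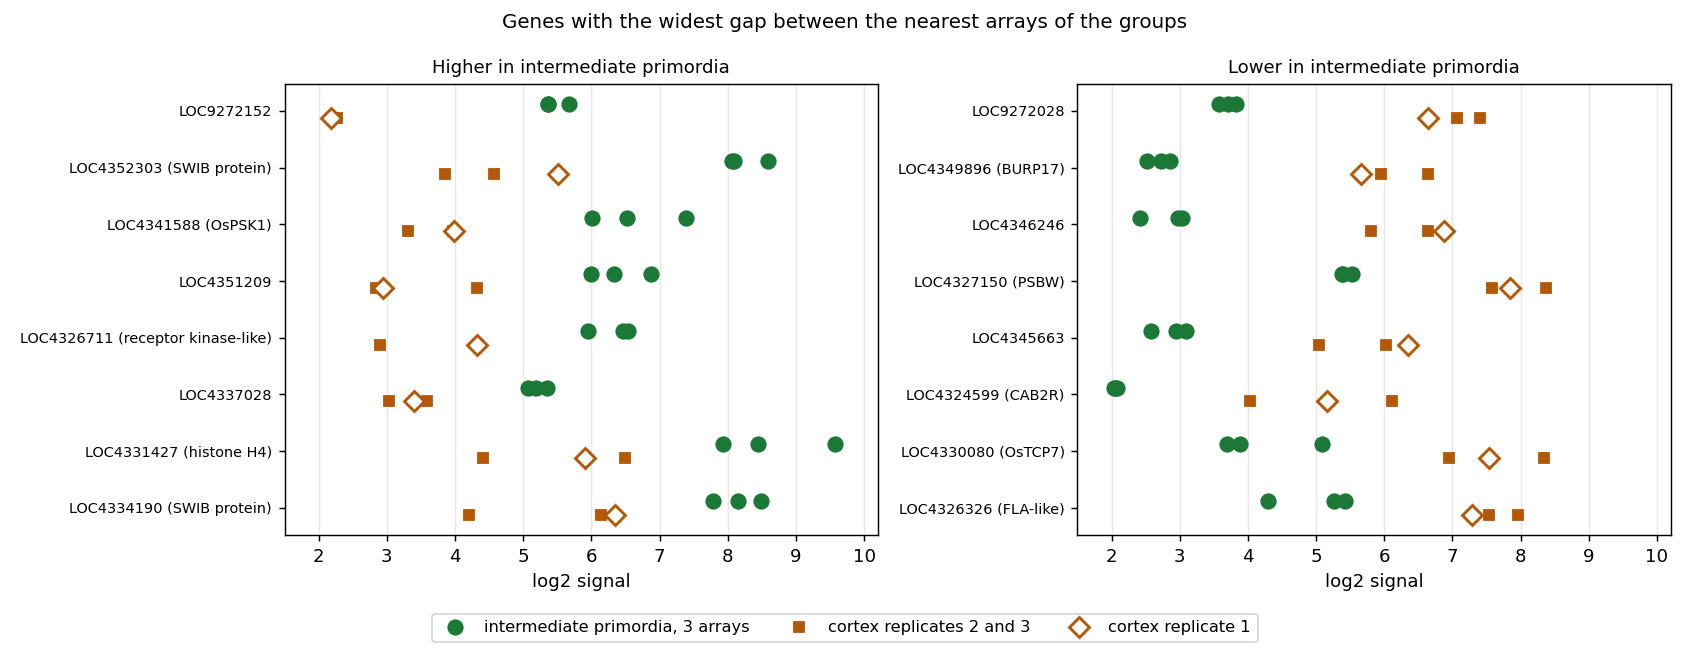
Log2 signals of the genes with the widest gap between the nearest arrays of the groups, 8 higher (left) and 8 lower (right) in intermediate primordia. Circles are the 3 intermediate arrays, squares cortex replicates 2 and 3, and open diamonds cortex replicate 1, and in each of the 16 rows all circles lie on the same side of the cortex symbols.

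Of the other large rises by mean, beside *LOC4352303* and *LOC9272152* above, many had cortex replicate 1 standing between the groups. *LOC4344071*, with the largest rise by mean among called genes, had signals of 9.98, 8.96 and 8.08 in intermediate primordia and 7.42, 3.97 and 4.65 in cortex (3.66 ± 0.86, adjusted p = 0.0376). *LOC9266486*, annotated as similar to disease resistance proteins, had 7.63, 7.14 and 7.54 in intermediate primordia and 5.97, 2.87 and 2.68 in cortex (3.60 ± 0.72, adjusted p = 0.0249). *LOC4326909* had 7.04, 6.77 and 6.61 in intermediate primordia and 6.07, 1.61 and 2.13 in cortex (3.54 ± 0.88, adjusted p = 0.0444). In all 3 genes cortex replicate 1 was far above the other cortex arrays and nearer to the intermediate ones. The same held for *LOC4351876*, which encodes a protein related to L37 of the mitochondrial ribosome, with 7.52, 7.24 and 6.62 in intermediate primordia and 5.41, 2.95 and 3.07 in cortex (3.32 ± 0.57, adjusted p = 0.019). It held for *LOC4332935*, related to NAP57, a protein that makes pseudouridine in ribosomal RNA, with 8.57, 8.37 and 8.24 in intermediate primordia and 7.41, 3.34 and 4.89 in cortex (3.18 ± 0.76, adjusted p = 0.0401). The unnamed *LOC4328921*, *LOC4325773*, *LOC4338879*, *LOC4337950* and *LOC4345938* rose by 3.37, 3.31, 3.24, 3.10 and 3.07 (adjusted p = 0.0369, 0.0281, 0.0491, 0.0215 and 0.0236). For these 10 genes the change was 0.74 to 1.72 against cortex replicate 1 alone, where 0 passed (adjusted p = 0.0686 to 0.601), and 3.82 to 4.93 without that array, where all 10 passed. With 1 array left out, 10, 1 and 1 calls remained without cortex replicate 1, 2 and 3 and 0, 0 and 2 without intermediate replicate 1, 2 and 3 (highest adjusted p = 0.134). After another quantile normalization 3 remained. With a replicate block, *LOC4338879* no longer passed (adjusted p = 0.0618).

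The 4 PLETHORA genes described here rose. They were matched through a supplementary list of genes called on these arrays, so a member not called there could not be matched that way. Their common direction therefore says nothing about the family as a whole. The study reports a further member, *CRL5*, as lower than cortex at this stage, and it is not described here. The study singled them out on these same arrays, as it did *OsPSK1*, the SWIB genes, *OsLOL2*, *OsTCP7* and *ARF5*, so their direction is not independent evidence. *OsPLT3* (*LOC4329975*) had signals of 6.94, 6.37 and 7.00 in intermediate primordia and 5.76, 3.90 and 2.73 in cortex (2.64 ± 0.57, adjusted p = 0.0297). Its change was 3.45 without cortex replicate 1, 1.94 without cortex replicate 3, where it did not pass, and 1.00 against cortex replicate 1 alone. *OsPLT1* (*LOC4337245*) had 5.54, 5.67 and 5.76 in intermediate primordia and 4.99, 3.89 and 4.13 in cortex (1.32 ± 0.24, adjusted p = 0.0203). In both genes the groups did not overlap and cortex replicate 1 came closest to the primordia. *OsPLT6* (*LOC4350315*) had 4.50, 4.02 and 3.89 in intermediate primordia and 3.59, 2.33 and 2.53 in cortex (1.32 ± 0.31, adjusted p = 0.0385). *OsPLT5* (*LOC4325035*) had 4.06, 2.91 and 3.71 in intermediate primordia and 2.53, 2.64 and 2.33 in cortex (1.07 ± 0.28, adjusted p = 0.0491, and 0.0519 with a replicate block). *OsPLT5* was the one PLETHORA gene of these whose highest cortex array was replicate 2, and its intermediate replicate 2 lay just above cortex.

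Other regulators that rose were *OsLOL2* and *GRF6*. *OsLOL2* (*LOC4325320*), a zinc finger protein of the LSD1-like class, had 6.47, 6.50 and 6.48 in intermediate primordia, against 5.56, 4.03 and 4.08 in cortex (1.93 ± 0.41, adjusted p = 0.0282). *GRF6* (*LOC4333990*) had 5.67, 5.46 and 5.17 in intermediate primordia and 4.59, 3.48 and 3.71 in cortex (1.51 ± 0.27, adjusted p = 0.0196). It was the single called member (10%, against 3.21% of all genes) of the 10 listed growth-regulating factors, which promote cell proliferation in growing organs. Of the 8 GRAS factors listed 0 were called in limma, and 0 were higher and 1 lower at an unadjusted p under 0.05. *OsSHR1* (*LOC4343753*) had 5.73, 4.66 and 5.79 in intermediate primordia and 4.14, 4.55 and 5.35 in cortex (0.71, adjusted p = 0.218) and *OsSCR1* (*LOC4349638*) had 2.97, 2.54 and 2.89 in intermediate primordia and 2.73, 2.25 and 2.26 in cortex (0.38, adjusted p = 0.339). In both genes the groups overlapped. Of the 8 WOX factors listed 0 were called either (0 higher and 2 lower at an unadjusted p under 0.05). Among them *QHB* (*LOC4324824*), a marker of the quiescent centre, had 4.40, 3.73 and 4.51 in intermediate primordia and 4.03, 4.06 and 4.44 in cortex (0.04, adjusted p = 0.913). Of the 6 calls in the PLETHORA, *OsLOL2* and *GRF6* genes, 6 remained without cortex replicate 1, 0 without cortex replicate 2, 0 without cortex replicate 3, and 0, 1 and 2 without intermediate replicate 1, 2 and 3 (highest adjusted p = 0.168). Calls that remained numbered 3 after another quantile normalization and 0 against cortex replicate 1 alone, with changes of 0.54 to 1.03.

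**Figure D4:**
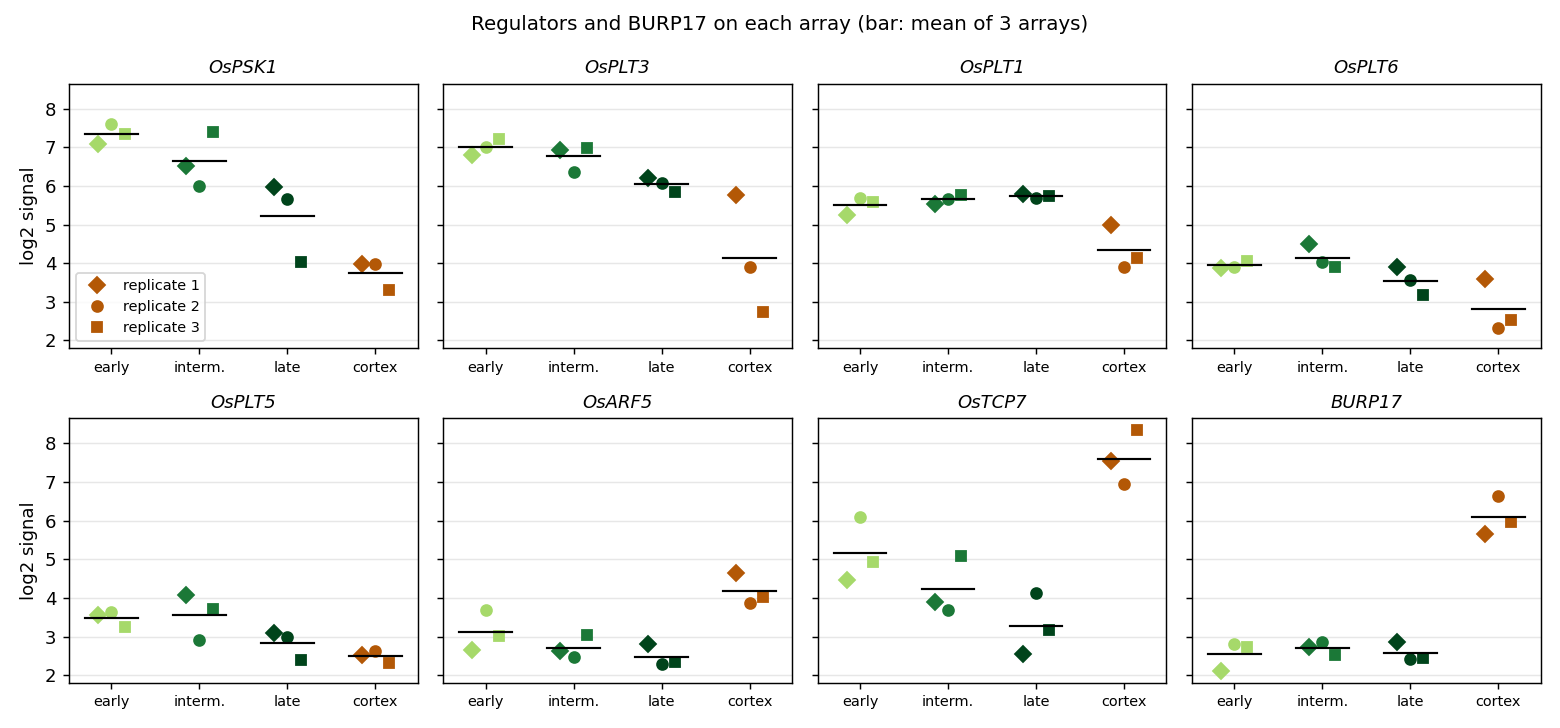
Log2 signals of *OsPSK1*, the 4 PLETHORA genes, *OsARF5*, *OsTCP7* and *BURP17* in early, intermediate and late primordia and in cortex, with each array as a point (symbols give the replicate) and the mean of 3 arrays as a bar. In *OsPSK1* and the PLETHORA genes the intermediate arrays lie above all cortex arrays, and in *OsARF5*, *OsTCP7* and *BURP17* below them.

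Other chromatin genes rose in smaller steps. Besides the pair of SWIB genes above, *LOC4328187* had signals of 7.11, 6.22 and 6.78 in intermediate primordia and 5.64, 4.79 and 5.42 in cortex (1.42 ± 0.30, adjusted p = 0.0282), and *LOC4335638*, listed as OsSWIB, had 7.83, 7.43 and 7.49 in intermediate primordia and 7.06, 6.72 and 6.59 in cortex (0.79 ± 0.16, adjusted p = 0.026). The groups did not overlap in either gene. The change of *LOC4335638* turned negative, to -0.16, after another quantile normalization. Of 26 genes of chromatin assembly and DNA methylation 3 rose (11.5%, against 3.21% of all genes) and 0 fell. Their median change was 0.24, against -0.03 for all genes. *SPT16* (*LOC4335478*), a subunit of the FACT complex, which moves histones aside for polymerases, had 5.20, 4.64 and 4.53 in intermediate primordia and 3.92, 3.46 and 3.55 in cortex (1.15 ± 0.23, adjusted p = 0.0248). The other subunit of FACT, SSRP1 (*LOC4325652*), rose by 1.03 ± 0.26 (adjusted p = 0.0458, and 0.0542 with a replicate block). *MSI1* (*LOC4333540*), a WD40 protein that binds histones in chromatin assembly, rose by 1.18 ± 0.28 (adjusted p = 0.0387). Of these 5 calls 5, 0 and 1 remained without cortex replicate 1, 2 and 3, and 0, 1 and 2 without intermediate replicate 1, 2 and 3 (highest adjusted p = 0.155). After another quantile normalization 1 remained, where *MSI1* stood at 0.43, and against cortex replicate 1 alone 0.

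Genes of DNA replication and division were mostly higher, though few passed. Of 31 replication genes 27 were higher (87.1%, against 46.4% of all genes), 4 rose (12.9%, against 3.21%) and 0 fell, with a median change of 0.41. *RPA14* (*LOC4327706*), a subunit of the replication protein that coats single-stranded DNA, had 6.75, 6.73 and 6.50 in intermediate primordia and 5.93, 4.17 and 5.30 in cortex (1.52 ± 0.35, adjusted p = 0.0363). *MCM3* (*LOC4339099*), of the helicase that opens the fork, had 4.29, 4.10 and 4.34 in intermediate primordia and 3.65, 3.31 and 2.92 in cortex (0.95 ± 0.21, adjusted p = 0.0327). The others were *MCM5* (*LOC4331016*, 0.59, adjusted p = 0.0385) and *RPA2A* (*LOC4331236*, 1.24, adjusted p = 0.0491, and 0.0521 with a replicate block). Of 26 mitotic genes 23 were higher (88.5%, against 46.4% of all genes), 3 rose (11.5%, against 3.21%) and 0 fell, with a median of 0.30. *CKS1* (*LOC4331610*), which docks cyclin-dependent kinases to their substrates, had 7.33, 6.76 and 7.38 in intermediate primordia and 5.49, 5.48 and 5.91 in cortex (1.53 ± 0.25, adjusted p = 0.0166). *CDKB2-1* (*LOC4346016*), a kinase of the plant-specific B class that acts at mitosis, had 7.80, 6.76 and 7.18 in intermediate primordia and 6.12, 5.54 and 5.86 in cortex (1.41 ± 0.32, adjusted p = 0.0334). The highest cortex array was replicate 1 for *RPA14*, *MCM3* and *CDKB2-1* and replicate 3 for *CKS1*, and in none of these 4 genes did the groups overlap. The mitotic cyclin gene *CYCB2* (*LOC4336670*) rose by 0.70 (adjusted p = 0.0454).

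Among 9 genes of histone H2B, *H2B.3* (*LOC4324510*) had 9.60, 9.71 and 9.57 in intermediate primordia and 8.73, 8.66 and 8.88 in cortex (0.87 ± 0.19, adjusted p = 0.0327) and *H2B.6* (*LOC4324502*) rose by 0.75 (adjusted p = 0.0375, and 0.0511 with a replicate block). The median change of the 9 was 0.60, and 0.89 against cortex replicate 1 alone, but both calls turned negative, to -0.18 and -0.30, and the median fell to -0.07 after another quantile normalization. The 2 H2B calls are 22.2% of the 9, against 3.21% of all genes. The list is bright, with median levels of 7.78 in intermediate primordia and 6.76 in cortex. Among the 931 genes with a mean level of 6 or more, 29.6% rose and the median change was 0.88, both above the values of the list. H2B copies, too, are near-identical. Of the 9 calls in replication, mitosis and H2B, 8 remained without cortex replicate 1, 0 without cortex replicate 2, 2 without cortex replicate 3, and 0, 1 and 1 without intermediate replicate 1, 2 and 3 (highest adjusted p = 0.168). Another quantile normalization left 3, and cortex replicate 1 alone 0.

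Cytosolic ribosomal proteins were higher in all 26 genes listed, of which 8 rose (30.8%, against 3.21% of all genes) and 0 fell. The list is bright, with median levels of 6.98 in intermediate primordia and 5.86 in cortex. Among the 931 genes with a mean level of 6 or more, 29.6% rose and the median change was 0.88, near the values of the list. After another quantile normalization 2 of the 26 rose. The list had a median change of 0.85 against the cortex mean and 0.32 against cortex replicate 1 alone. *RPS26* (*LOC4327570*) had 7.48, 7.15 and 7.16 in intermediate primordia and 6.08, 5.30 and 5.80 in cortex (1.54 ± 0.21, adjusted p = 0.00868). *RPS27AB* (*LOC4337883*) had 9.08, 9.03 and 8.93 in intermediate primordia and 7.83, 6.85 and 7.84 in cortex (1.51 ± 0.23, adjusted p = 0.0136). The large-subunit gene *CL27* (*LOC4327257*) had 6.82, 6.90 and 6.56 in intermediate primordia and 5.82, 5.81 and 5.80 in cortex (0.95 ± 0.18, adjusted p = 0.0221). For *CL27* the 3 cortex arrays were alike, whereas for *RPS26* and *RPS27AB* cortex replicate 2 was the lowest. *RPL5B* (*LOC9271934*) shows the opposite case, with 8.93, 8.92 and 8.79 in intermediate primordia and 8.50, 6.11 and 6.61 in cortex (1.81, adjusted p = 0.0491), of which 0.38 was left against cortex replicate 1. *QM1* (*LOC4337928*), *60SP0* (*LOC4344590*), *RPL7A-1* (*LOC4345279*) and *RPL39C* (*LOC9268459*) rose by 0.93, 0.76, 0.62 and 0.95, and *QM1* turned to -0.15 after another quantile normalization. Ribosomal proteins are encoded by small families of like genes, whose signals are not fully separate.

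The initiation factor *eIF-4A-1* (*LOC4341966*), an RNA helicase, rose by 1.10 ± 0.19 (adjusted p = 0.0194) as the single call among 14 translation factors (7.14%, against 3.21% of all genes). All 14 were higher (100%, against 46.4% of all genes). *TIM9* (*LOC4352583*), a chaperone of protein import into mitochondria, had 7.93, 7.89 and 7.30 in intermediate primordia and 7.02, 4.74 and 5.40 in cortex (1.98 ± 0.50, adjusted p = 0.0464). It was the single call among 15 genes of organelle import and folding (6.67%, against 3.21% of all genes). Its groups did not overlap, but cortex replicate 1 lay close to the lowest intermediate array. Of 16 proteasome subunits 14 were higher (87.5%, against 46.4% of all genes), 4 rose (25%, against 3.21%) and 0 fell, with a median of 0.48. They were *PAE1* (*LOC4350922*, 1.14, adjusted p = 0.0232) and *PBD1* (*LOC4333803*, 1.07, adjusted p = 0.0264) of the core particle, and *RPT1B* (*LOC4340376*, 0.66, adjusted p = 0.0334) and *RPN11* (*LOC4324379*, 1.11, adjusted p = 0.0419) of the regulatory particle. Of the 14 calls in protein synthesis, import and the proteasome, 14, 2 and 3 remained without cortex replicate 1, 2 and 3, and 0, 3 and 5 without intermediate replicate 1, 2 and 3 (highest adjusted p = 0.158). Calls that remained numbered 3 after another quantile normalization and 1 against cortex replicate 1 alone.

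**Figure D5:**
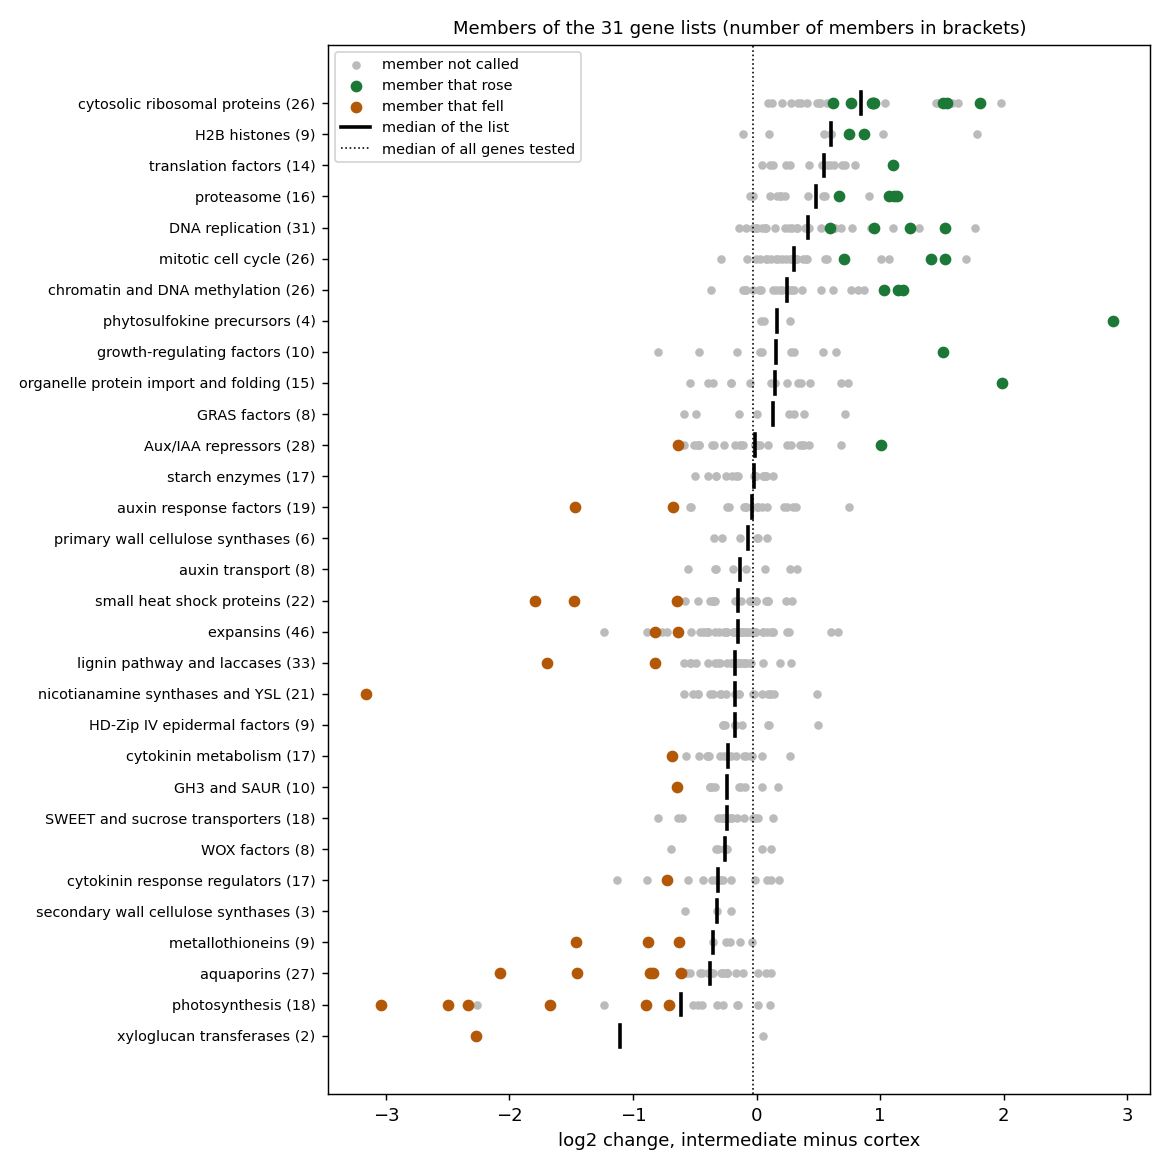
Log2 change (horizontal axis) of every member of the 31 gene lists (rows), with each list's median as a vertical bar and the dotted line at the median of all genes, -0.03. Green and orange points are members that rose and fell. The median of the ribosomal proteins is 0.85 (0.28 after another quantile normalization) and that of photosynthesis -0.61 (-0.56).

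The widest falls were picked by the same kind of gap, so standing clear of every cortex array is part of how they were chosen. *LOC4346246*, without a name, had signals of 2.42, 3.04 and 2.97 in intermediate primordia and 6.88, 6.64 and 5.81 in cortex (-3.63 ± 0.28, adjusted p = 0.000728). *BURP17* (*LOC4349896*), of a plant family of secreted proteins with a BURP domain, had 2.73, 2.86 and 2.51 in intermediate primordia and 5.65, 6.64 and 5.96 in cortex (-3.38 ± 0.26, adjusted p = 0.000728). *LOC9272028* had 3.71, 3.58 and 3.83 in intermediate primordia, against 6.64, 7.41 and 7.07 in cortex (-3.34 ± 0.31, adjusted p = 0.00262). In all 3 genes every cortex array lay far above every intermediate array. The unnamed *LOC4345663* had 2.95, 2.58 and 3.09 in intermediate primordia and 6.35, 6.03 and 5.04 in cortex (-2.93 ± 0.29, adjusted p = 0.00262). *OsTCP7* (*LOC4330080*), of the TCP factors that set growth and cell division in many organs, had 3.88, 3.70 and 5.08 in intermediate primordia and 7.53, 6.95 and 8.34 in cortex (-3.39 ± 0.55, adjusted p = 0.0166). Intermediate replicate 3 was the highest of its group in *OsTCP7* and was still below every cortex array. *LOC4326326*, related to fasciclin-like arabinogalactan proteins of the cell wall, had 4.30, 5.27 and 5.42 in intermediate primordia and 7.28, 7.97 and 7.54 in cortex (-2.60 ± 0.34, adjusted p = 0.00863). Of these 6 calls all 6 remained without any 1 cortex array and after another quantile normalization, and 4 remained against cortex replicate 1 alone. Without intermediate replicate 1, 2 and 3 it was 5, 5 and 6 (highest adjusted p = 0.0832). Leaving out replicate number 2 or 3 in every tissue left 0 and 2, and the fit of only the 6 arrays compared left 1.

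Photosynthesis genes were mostly lower. Of 18 on the list 16 were lower (88.9%, against 53.6% of all genes), 6 fell (33.3%, against 2.51%) and 0 rose. The median change of the list was -0.61, and -0.42 against cortex replicate 1 alone. *CAB2R* (*LOC4324599*), a chlorophyll a/b-binding protein of the light-harvesting complex, had 2.04, 2.06 and 2.08 in intermediate primordia, below the array medians, and 5.16, 6.12 and 4.03 in cortex (-3.04 ± 0.38, adjusted p = 0.00722). *PSBW* (*LOC4327150*), a small protein of photosystem II, had 5.40, 5.52 and 5.38 in intermediate primordia and 7.84, 8.38 and 7.58 in cortex (-2.50 ± 0.29, adjusted p = 0.00532). The intermediate arrays agreed closely in both genes, and the cortex arrays spread more. *CAB1R* (*LOC4346803*) had 2.68, 3.48 and 2.96 in intermediate primordia and 5.03, 6.71 and 4.37 in cortex (-2.33 ± 0.48, adjusted p = 0.0259), and *RCABP69* (*LOC4343583*) had 2.73, 2.68 and 2.79 in intermediate primordia and 4.93, 4.26 and 4.03 in cortex (-1.67 ± 0.19, adjusted p = 0.00532). Cortex replicate 2 was the brightest for *CAB1R* and *CAB2R*, and cortex replicate 1 for *RCABP69*. *LHCP* (*LOC4333359*) fell by 0.89 (adjusted p = 0.0497) and *PETE* (*LOC4339833*), plastocyanin, by 0.71 (adjusted p = 0.0232). Of the 6 calls 6, 5 and 4 remained without cortex replicate 1, 2 and 3, and 3, 3 and 4 without intermediate replicate 1, 2 and 3 (highest adjusted p = 0.149). After another quantile normalization 5 remained, as did 5 against cortex replicate 1 alone. CAB genes share much of their sequence.

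Among the large falls by mean were a pair of neighbouring genes on chromosome 10 for proteins of the lipid-transfer family. *LOC4349330* had signals of 2.11, 2.19 and 2.03 in intermediate primordia and 6.94, 7.35 and 3.81 in cortex (-3.92 ± 0.73, adjusted p = 0.0212), with the intermediate arrays below their medians. *LOC4349329* had 3.08, 3.07 and 3.60 in intermediate primordia and 6.32, 7.01 and 4.40 in cortex (-2.66 ± 0.54, adjusted p = 0.0251). In both, cortex replicate 3 was the lowest cortex array and still above the primordia. *NAS3* (*LOC4344361*), which makes nicotianamine, a chelator of iron and zinc, had 3.00, 3.85 and 3.19 in intermediate primordia and 4.91, 8.30 and 6.33 in cortex (-3.16 ± 0.79, adjusted p = 0.0444). It was the single call among 21 nicotianamine synthase and YSL transporter genes (4.76%, against 2.51% of all genes). *LOC4329582*, similar to HIN1, a protein induced by bacterial harpin in tobacco, had 4.47, 5.25 and 3.89 in intermediate primordia and 8.48, 9.02 and 5.43 in cortex (-3.10 ± 0.82, adjusted p = 0.0498). *LOC4327219*, a germin-like protein of the cell wall, had 3.91, 3.95 and 4.07 in intermediate primordia and 6.44, 8.06 and 5.37 in cortex (-2.65 ± 0.50, adjusted p = 0.0217). The cortex arrays of these genes were far apart from each other. The unnamed *LOC4342447* fell by 2.62 (adjusted p = 0.0212). Of these 6 calls 5, 1 and 4 remained without cortex replicate 1, 2 and 3, where they fell by 1.93 to 5.04, and 0, 0 and 4 without intermediate replicate 1, 2 and 3 (highest adjusted p = 0.156). Another quantile normalization left 6, and cortex replicate 1 alone 3.

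Several water channels and wall enzymes fell. Of 27 aquaporins 24 were lower (88.9%, against 53.6% of all genes), 5 fell (18.5%, against 2.51%) and 0 rose, with a median of -0.38, and of -0.16 against cortex replicate 1 alone. *TIP1-1* (*LOC4331608*), a water channel of the vacuole membrane, had 3.34, 5.20 and 4.44 in intermediate primordia and 6.17, 6.45 and 6.61 in cortex (-2.08 ± 0.41, adjusted p = 0.0246). *PIP1-1* (*LOC4330248*), of the plasma membrane, had 5.31, 5.64 and 5.66 in intermediate primordia and 6.51, 6.31 and 6.29 in cortex (-0.84 ± 0.16, adjusted p = 0.0241). The cortex arrays were close together in both genes. *PIP2-6* (*LOC4335226*), *TIP2-1* (*LOC4330207*) and *TIP4-1* (*LOC4338163*) fell by 0.86, 1.45 and 0.61 (adjusted p = 0.0215, 0.0439 and 0.0496), and *TIP2-1* had an adjusted p of 0.0518 with a replicate block. *OsXTH8* (*LOC4345019*), which cuts and rejoins the xyloglucan of the wall, had 4.53, 4.66 and 4.72 in intermediate primordia and 7.08, 7.70 and 5.95 in cortex (-2.27 ± 0.40, adjusted p = 0.0194). Of 46 expansins, which loosen walls, 36 were lower (78.3%) and 2 fell (4.35%), with a median of -0.15, and of -0.02 against cortex replicate 1 alone. The 2 genes were *EXPB16* (*LOC9267660*, -0.82, adjusted p = 0.0233) and *EXLA2* (*LOC4349265*, -0.63, adjusted p = 0.034). Aquaporins and expansins are dim lists, with median levels of 2.79 and 2.61 in intermediate primordia and 2.98 and 2.87 in cortex. The 13180 genes with a mean level below 3 had a median change of -0.11.

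Of 33 genes of the lignin pathway and laccases 30 were lower (90.9%, against 53.6% of all genes) and 2 fell (6.06%, against 2.51%), with a median of -0.17, and of -0.04 against cortex replicate 1 alone. The list is dim, with median levels of 2.50 in intermediate primordia and 2.72 in cortex, and the 13180 genes below 3 had a median change of -0.11. Both of its fallers are cinnamyl alcohol dehydrogenases, which make the alcohols that lignin is built from. *CAD8D* (*LOC4346993*) had 3.65, 3.76 and 4.75 in intermediate primordia and 4.85, 6.44 and 5.96 in cortex (-1.69 ± 0.42, adjusted p = 0.0444), a narrow gap between the highest primordium array and cortex replicate 1. *CAD9* (*LOC9266669*) fell by 0.82 (adjusted p = 0.0456). With a replicate block neither passed (adjusted p = 0.0555 for *CAD8D* and 0.0667 for *CAD9*). None of the 6 primary wall and 3 secondary wall cellulose synthases, 18 SWEET and sucrose transporters and 17 starch enzymes was called in limma at the adjusted p, and at the study's thresholds 2 of the sugar transporters were lower. At an unadjusted p under 0.05, 0 primary wall and 2 secondary wall cellulose synthases, 4 sugar transporters and 3 starch enzymes were lower and 0 of any of them higher. The sugar transporters are dim too, with median levels of 2.48 in intermediate primordia and 2.63 in cortex. Of the 10 calls in water channels and wall enzymes 9, 1 and 3 remained without cortex replicate 1, 2 and 3, and 0, 1 and 5 without intermediate replicate 1, 2 and 3 (highest adjusted p = 0.168). Calls that remained numbered 5 after another quantile normalization and 1 against cortex replicate 1 alone.

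Hormone genes showed few calls. Of 19 auxin response factors, which bind the promoters of auxin-responsive genes, 2 fell (10.5%, against 2.51% of all genes). *ARF5* (*LOC4328265*) had 2.61, 2.47 and 3.05 in intermediate primordia and 4.66, 3.86 and 4.02 in cortex (-1.47 ± 0.29, adjusted p = 0.0248), and *ARF13* (*LOC9269399*) fell by 0.67 (adjusted p = 0.0203). For *ARF5* the groups did not overlap and cortex replicate 1 was the highest array. Of 28 Aux/IAA repressors, which auxin removes by degradation, 1 rose (3.57%, against 3.21% of all genes) and 1 fell (3.57%, against 2.51%). *IAA5* (*LOC4325515*) rose by 1.00 (adjusted p = 0.0498, and 0.05 with a replicate block, no longer a call), but by 0.25 against cortex replicate 1 alone. *IAA20* (*LOC4327919*) fell by 0.64 (adjusted p = 0.0222). *GH3.4* (*LOC4339234*), whose family joins auxin to amino acids, fell by 0.64 (adjusted p = 0.0328) as the single call among 10 GH3 and SAUR genes (10%, against 2.51% of all genes). Of 8 auxin transport genes 0 were called in limma, with 0 higher and 2 lower at an unadjusted p under 0.05.

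On the cytokinin side 14 of 17 response regulators were lower (82.4%, against 53.6% of all genes), with a median of -0.31. Of these 1 fell (5.88%, against 2.51%), *RR41* (*LOC4334066*, -0.73, adjusted p = 0.049, and 0.0701 with a replicate block). Of 17 cytokinin metabolism genes 15 were lower (88.2%), with a median of -0.23. Of these 1 fell (5.88%), *CKX1* (*LOC4325668*, -0.68, adjusted p = 0.0271), an oxidase that breaks cytokinin down. Against cortex replicate 1 alone both medians were -0.05. Both lists are dim, with median levels of 2.73 and 2.68 in intermediate primordia, and the 13180 genes below 3 had a median change of -0.11. Of the 7 hormone calls 7, 1 and 0 remained without cortex replicate 1, 2 and 3, and 0, 0 and 4 without intermediate replicate 1, 2 and 3 (highest adjusted p = 0.169). Another quantile normalization left 4, and cortex replicate 1 alone 0.

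Metallothioneins, small metal-binding proteins, were lower in all 9 genes listed (100%, against 53.6% of all genes), with a median of -0.35. The list is dim, with median levels of 2.57 in intermediate primordia and 2.80 in cortex, and the 13180 genes below 3 had a median change of -0.11. Of the 9, 3 fell (33.3%, against 2.51% of all genes). *MT2C* (*LOC4337596*) had 3.73, 4.42 and 4.63 in intermediate primordia and 5.43, 5.92 and 5.81 in cortex (-1.46 ± 0.25, adjusted p = 0.0194), without overlap. *MT2A* (*LOC4325218*) fell by 0.88 and *MT2B* (*LOC4326409*) by 0.63 (adjusted p = 0.0334 and 0.0241). *MT2B* had 2.13, 1.91 and 1.97 in intermediate primordia and 2.51, 2.64 and 2.75 in cortex, below the array medians in both tissues. It was no longer a call with the filter on dim probe sets at the 20th percentile, so its fall lies at very low signals. Of 22 small heat shock proteins, chaperones that bind unfolding proteins, 3 fell (13.6%, against 2.51% of all genes). *HSP18.8* (*LOC4343386*) had 3.76, 4.02 and 3.86 in intermediate primordia and 4.77, 5.83 and 5.47 in cortex (-1.48 ± 0.24, adjusted p = 0.0166), and cortex replicate 1 was the lowest of the cortex arrays. *HSP19.0* (*LOC4328736*) fell by 1.80 and *HSP17.9B* (*LOC4325695*) by 0.65 (adjusted p = 0.0264 and 0.0444, and 0.0552 for *HSP17.9B* with a replicate block). Of these 6 calls 6, 1 and 2 remained without cortex replicate 1, 2 and 3, and 0, 1 and 3 without intermediate replicate 1, 2 and 3 (highest adjusted p = 0.136). Calls that remained numbered 3 after another quantile normalization and 0 against cortex replicate 1 alone.

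Set beside the other rings, the intermediate stage had no gene of its own at the adjusted p. Between intermediate and early primordia 0 genes (0%) passed in limma, and between intermediate and late primordia 0 genes (0%). Of the 24160 genes, 758 and 598 had an unadjusted p under 0.05, fewer than that threshold lets through on average when nothing differs. The levels of some of the genes can therefore only be laid side by side. *OsPSK1* averaged 7.34, 6.64 and 5.22 in early, intermediate and late primordia, against 3.75 in cortex. *OsPLT3* averaged 7.01, 6.77 and 6.04, against 4.13 in cortex. *OsTCP7* averaged 5.17, 4.22 and 3.28, against 7.61 in cortex. In these genes the intermediate mean lay between those of its neighbouring stages, with unadjusted p of 0.174 and 0.0138 for *OsPSK1* against early and late, 0.679 and 0.231 for *OsPLT3*, and 0.117 and 0.117 for *OsTCP7*. Other genes above were not graded that way. *LOC4326711* averaged 5.64, 6.32 and 5.55 in early, intermediate and late primordia, *LOC9272152* 5.18, 5.47 and 4.76, *OsPLT6* 3.95, 4.14 and 3.55, and *OsPLT5* 3.48, 3.56 and 2.83. *OsPLT1* averaged 5.50, 5.65 and 5.75. *OsSCR1* (*LOC4349638*) averaged 3.99, 2.80 and 2.81, against 2.41 in cortex, and its difference between intermediate and early primordia had an unadjusted p of 0.000762 and an adjusted p of 0.999. All stages share the same cortex arrays.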

How the data were processed

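RNA of early, intermediate and late CR primordia and of stem cortex was hybridized to 12 rice gene arrays, 3 for each of 4 tissues. The authors deposited 1 log2 signal for each probe set and array, normalized and summarized over all arrays, using Robust Multi-array Average in the methods but GCRMA and Affymetrix Expression Console in the deposited record, a conflict that was not settled here. Probe intensities were not used here. Of 36643 probe sets, 24161 carried 1 gene in the platform annotation, 90 several and 12392 none, and the brightest probe set on average stood for each of 24160 genes. Symbols came from the RefSeq gene table, and 24 of 33 names used in the study were matched to 1 gene through a supplementary table, of which part was held and which lists genes called on these arrays. Descriptions such as SWIB protein come from that table too.

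A group means model over all 12 arrays was fitted with limma 3.58.1 in R 4.3.3, with eBayes (prior degrees of freedom 2.55, residual 8), and p-values were adjusted by the Benjamini-Hochberg method over the 24160 genes. The script was tested on simulated data. Rose and fell stand for an adjusted p under 0.05 together with at least a 1.5-fold change. Per the labels, a replicate number marks 1 pool of 2 stem bases in every tissue, so the numbers pair the samples. Deviations of same-numbered intermediate and cortex arrays correlated at 0.184, -0.0689 and 0.206, and those of different numbers at -0.378 to 0.228. The methods name no block, so the fit holds none, and an adjusted p with the replicate block is printed where it ended a call of a named gene (0.0542 for *LOC4325652*, for example).

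Genes were named by a rule in 4 parts, the largest changes without overlap between the groups, the widest gaps between nearest arrays, up to 3 members of each of 31 lists with the lowest p, and the genes named in the study. Not all that the rule gives are described. *RPA2A*, *QM1*, *60SP0*, *RPL7A-1*, *RPL39C*, *RPL5B*, *RPN11*, *LHCP*, *PETE*, *CAB1R*, *TIP2-1* and *TIP4-1* lie outside it and were named after their values were seen, to complete the counts of their lists. The comparison, the lists and the rule were chosen with earlier results of these data known. Lists were built from symbols and product names, so each holds part of its family. As alternatives, 19 in all, the analysis was repeated with a replicate block, 6 arrays, another quantile normalization, median centring, filters on dim probe sets, an intensity trend, array weights, the mean of a gene's probe sets, cortex replicate 1 alone, and leaving out each array or each replicate number.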

Additional observations from a re-analysis of the deposited data

Results flagged for a closer look

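Probe sets to which the annotation gives no gene stand outside the comparison, and they carried a signal of their own. Of 12392 such probe sets, 581 (4.69%) were higher and 356 (2.87%) lower in intermediate primordia than in cortex at the same thresholds, with a median log2 change of -0.07. What these probe sets measure was not tested.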

How the results depend on the processing

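Genes that rose and fell (776 and 606) numbered 1 and 1 when only the 6 arrays compared were fitted, with 855 and 567 at the study's thresholds (1372 and 994). Another quantile normalization gave 293 rises and 492 falls (37.3% of the calls higher, against 56.2%), 846 higher and 1141 lower at the study's thresholds, and 138 genes above and 250 below every cortex array by 1.5-fold (297 and 193). Median centring gave 1035 and 508 (67.1% higher), the filter at the median 1301 and 659 (66.4%), the intensity trend 417 and 536 (43.8%). Against cortex replicate 1 alone, 11 rose and 104 fell (9.57% higher), 267 and 484 at the study's thresholds, and 539 and 534 genes lay beyond it by 1.5-fold. Of the 776 and 606, 10 and 68 remained there, and 277 and 404 after quantile normalization. Leaving out 1 array or 1 replicate number gave 0 to 1902 rises and 0 to 1731 falls, 360 to 1967 and 386 to 1789 at the study's thresholds, and 340 to 1412 and 213 to 807 genes beyond every cortex array. Both counts of 0 came without replicate 2 in limma, where 360 and 386 passed the unadjusted thresholds. The fit with the replicate block gave 838 rises and 546 falls, of which 641 and 491 were shared, and ended 11 of the 93 calls of named genes. Changes that turned sign after quantile normalization were those of *LOC4335638* (-0.16), *LOC4337928* (-0.15), *LOC4324502* (-0.30) and *LOC4324510* (-0.18). *QHB* (*LOC4324824*), at 0.04 and not called, turned to -0.12 with quantile normalization and with array weights, and leaving out 1 array or replicate number gave -0.13 to 0.28. The cause of these shifts was not tested.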

Other observations

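Genes that fell lay side by side on the chromosomes somewhat more often than genes at large. In the order of the annotation, 56 of 606 fallers (9.24%) had another faller as a direct neighbour, against 4.96% of all genes with a faller next to them, and 59 of 776 risers (7.6%) had a neighbouring riser, against 6.32% of all genes. The pair of lipid-transfer genes *LOC4349329* and *LOC4349330* is one such case. Probe sets of neighbouring copies can share sequence, and the excess was not tested.

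A gap of at least 1.5-fold between the nearest arrays did not always go with a call. Of the 297 genes above every cortex array by that much, 42 had not risen, and of the 193 below every cortex array 12 had not fallen. Conversely 5 risers and 1 faller overlapped with cortex.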
